A study of Mus musculus with 6 samples.

Results

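The cytoplasmic ribosome is built from ribosomal RNA and a fixed set of proteins, each encoded in the mouse nucleus by its own gene and needed in about equal number. The genes described here were those whose symbol is Rps or Rpl with a number and, where present, a final letter or an l, l1 or x ending, together with Rplp0, Rplp1, Rplp2 and Rpsa. Genes of the Rps6k kinase family and names marked as pseudogenes were left out. The rule found 82 of the 17068 genes in the deposited tables, of which 31 belong to the small subunit and 51 to the large subunit. Rps3a1, Fau, Rack1 and Rps27rt fell outside the rule by name and are counted with the other genes, where their values are named.

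The cells were haematopoietic stem cells (HSCs) taken by sorting from bone marrow of Gfp-Lc3 mice, which carry a fluorescent fusion to the autophagosome protein LC3, and were profiled by droplet single-cell RNA sequencing. All groups carried Gfp-Lc3. There were 6 groups with 1 library each: old mice fasted for 24 hours and refed for 24 hours, old mice fasted for 24 hours, old mice fed freely, and young mice under the same 3 regimes. The authors pooled the libraries, sorted the cells into 11 clusters numbered 0 to 10, and set each cluster against all other cells, gene by gene. These tables hold no value per library, so young and old mice, the 3 feeding states and single animals cannot be told apart here, and no error between animals can be given. The clusters were made from the expression of these same cells. A cluster against the rest is therefore a description and not a test, and the deposited adjusted p over cells is used only as a filter on noise.

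Ribosomal protein mRNAs are among the most abundant in a growing cell. Most carry a 5′ terminal oligopyrimidine (TOP) tract, a C at the first base followed by a run of pyrimidines, through which the kinase complex mTORC1 and the RNA-binding protein LARP1 couple their translation and storage to nutrients. HSCs are known for a low rate of protein synthesis, and in human Diamond-Blackfan anaemia loss of a single copy of a ribosomal protein gene such as RPS19, RPL5 or RPL11 impairs red cell formation. Several ribosomal protein genes have a paralogue, a second gene for a closely related protein.

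The bases around the transcription start are shown for genes at both ends of the largest difference reported further on and for a pair of paralogues with their partners, because the TOP tract lies there. Each run holds 10 bases before the RefSeq start and 20 from the start on (GRCm38.p6), so the 11th letter is the start, and capitals mark the longest unbroken run of C and T.
Rps13, chr7:116334171-116334200, minus strand: caaacgtcggtgagtggcgtcaCTTCCTgt
Rpl27, chr11:101442235-101442264, plus strand: ctgTTCCTgtctgctgctcgtgctgctaat
Rps15a, chr7:118116128-118116157, minus strand: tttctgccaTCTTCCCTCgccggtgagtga
Rps21, chr2:180257369-180257398, plus strand: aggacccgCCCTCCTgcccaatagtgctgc
Rps15, chr10:80292421-80292450, plus strand: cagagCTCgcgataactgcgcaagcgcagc
Rpl7l1, chr17:46782637-46782666, minus strand: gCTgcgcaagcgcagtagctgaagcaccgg
Rps27l, chr9:66946076-66946105, plus strand: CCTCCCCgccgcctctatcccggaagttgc
Rps27, chr3:90213629-90213658, minus strand: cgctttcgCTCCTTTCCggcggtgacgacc
Rpl22l1, chr3:28805498-28805527, plus strand: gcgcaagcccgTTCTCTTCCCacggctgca
Rpl22, chr4:152325716-152325745, plus strand: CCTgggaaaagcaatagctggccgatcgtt
In Rps15a, Rps27 and Rps21 the run covers the start, which is a C in all 3. In Rpl22l1 a run of 10 pyrimidines begins just after the start, and in the first Rps27l start the longest run, of 7, lies wholly before it. The longest run was 2 bases in Rpl7l1 and 3 in Rps15 and in the start shown for Rpl22. RefSeq gives 2 starts each for Rpl22, Rps21 and Rps27l, of which the first listed is shown, and the longest runs at the other starts were 5, 4 and 4.

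Promoters of 62 of the 82 genes were matched by symbol in the RefSeq table, with 74 starts. A run of 8 or more pyrimidines lay within the 30-base window in 24 of these starts, or 32.4%, against 11.2% of all 32851 mouse starts in the table. The letters CTTTC, read on the coding strand, were in the window in 20.3% of the ribosomal protein starts and in 3.74% of all starts. A C stood at the first base in 28.4% and 16.3%. The letters CTTCCG, read on both strands over the 300 bases around the start, were in 60.8% of the ribosomal protein starts and 16.9% of all starts. A CTTTC also adds to a pyrimidine run, so these counts are not separate. A match is a description of these letters only, and RefSeq starts may lie some bases away from the start used in HSCs.

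Ribosomal protein genes supplied 36.3% of all scaled counts over the 22378 cells, 16.0% from the small subunit and 20.3% from the large. They made up 51 of the 60 genes with the highest mean level. The mean level is given in the authors' deposited table on a log2 scale, in counts per cell after scaling each cell to 10000. It reached 6.57 for Rps24, or 95.2 counts per 10000, and 6.55 for Rpl13, or 94.0 counts per 10000. Of the 82 genes, 80 had a log2 mean level of at least 0, which holds for 1216 of all 17068 genes. The lowest of the 80 were Rpl7l1 at 0.30, Rps27l at 1.39, Rpl36al at 2.71, Rpl31 at 3.46 and Rpl22l1 at 3.50 in the authors' deposited table. Rpl39l and Rpl3l, whose products are known from testis and from striated muscle, stood far below at -6.50 and -13.04. The 82 genes lie on 19 chromosomes, 14 of them on chromosome 7 and 4 on the X chromosome.

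Across the 11 clusters the family moved little, with 1 exception. In 10 of the 11 clusters the median log2 fold of the ribosomal protein genes, cluster against all other cells, lay between -0.07 and 0.06. In cluster 7, which holds 267 cells, it was -0.91. A gene was called higher or lower where the deposited log2 fold was 0.5 or more in either direction with a deposited adjusted p under 0.05. By this rule 78 of the 82 genes were lower in cluster 7 and none was higher, where 24.3% of all 17068 genes were called lower and 26.1% were called in either direction. The calls elsewhere were Rpl39l in cluster 0 and Rpl39l in cluster 10.

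**Figure D1:**
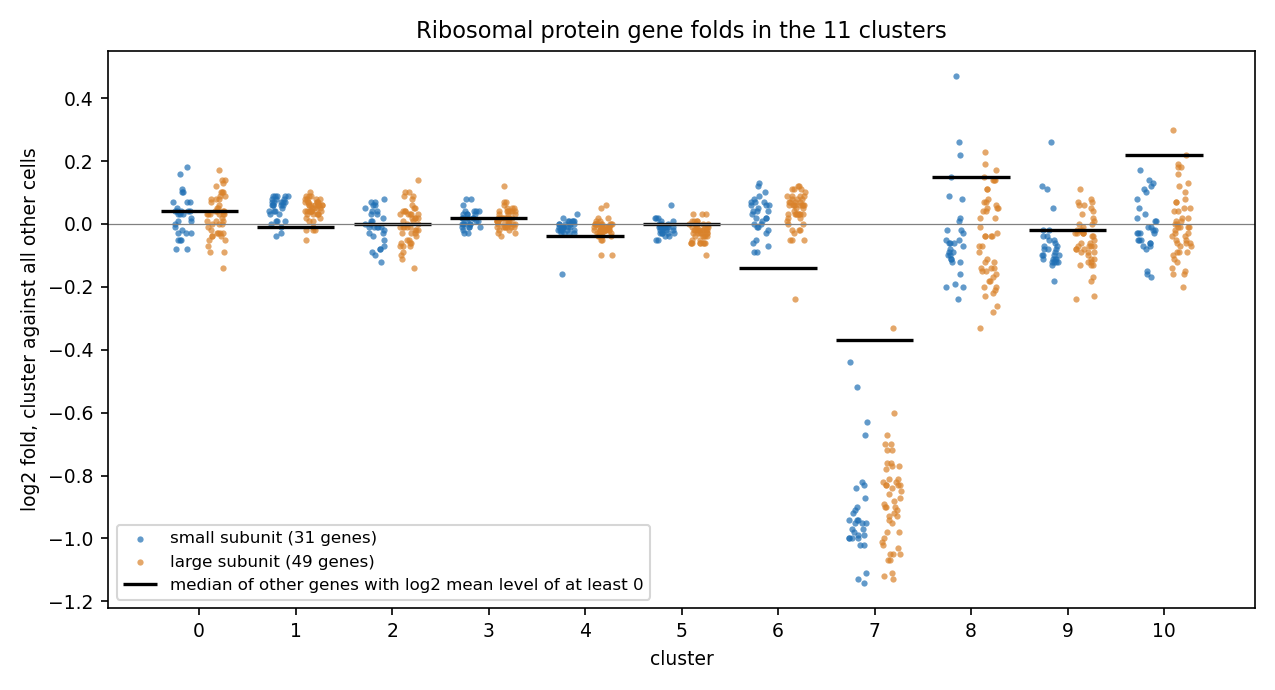
Deposited log2 fold of each cluster against all other cells (vertical axis) in clusters 0 to 10 (horizontal axis) for the 80 ribosomal protein genes with a log2 mean level of at least 0, small subunit in blue and large subunit in orange, with black bars at the median of the other genes above that level. Cluster 7 stands apart, with all 80 genes below 0, and the points of the subunits overlap in every cluster.

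In cluster 7 genes from different parts of the ribosome were lower. The lowest deposited folds were those of Rps13 at -1.14, Rpl27 at -1.13 and Rps15a at -1.13. Rpsa, the laminin-receptor protein of the small subunit, was at -0.63. The acidic stalk genes, whose proteins recruit elongation factors, were at -0.95 for Rplp0, -0.89 for Rplp1 and -0.72 for Rplp2 in the authors' deposited table. Rps27a, which is translated as a fusion with ubiquitin, was at -0.98. Rps6, the substrate of S6 kinase, was at -0.82. Among genes tied in humans to Diamond-Blackfan anaemia or to the 5q- syndrome, the deposited folds in cluster 7 were -0.84 for Rps19, -0.76 for Rpl5, -0.78 for Rpl11 and -0.99 for Rps14.

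The genes just inside and just outside the call were few. Rps21 was just inside at -0.52. Rps15 at -0.44 and Rpl7l1 at -0.33 were just outside by size, with deposited adjusted p of 1.10e-11 and 1.50e-02. At a fold of 0.25 all 80 well-detected genes were lower in cluster 7, where 30.8% of all genes were called at that size in either direction. Rpl39l was at 0.99 with a deposited adjusted p of 6.29e-01, and Rpl3l had no count in the cluster.

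The difference in cluster 7 has to be read beside the level of a gene, because most other abundant nuclear transcripts also had folds below 0 there. The median deposited log2 fold of other nuclear genes was -0.34 for the 721 genes of log2 level 0 to 1, -0.43 for the 275 of level 1 to 2, -0.52 for the 100 of level 2 to 3.4 and -0.72 for the 29 of level 3.4 or more. The 77 ribosomal protein genes of that last class had a median of -0.92 and an interquartile range of -1.0 to -0.82, against -0.85 to -0.35 for the 29 others. The 29 include 3 ribosomal genes outside the name rule, Fau at -1.0, Rps3a1 at -0.86 and Rack1 at -0.80. Without them the median of the other 26 was -0.69, with an interquartile range of -0.81 to -0.30. The ranges of the classes overlap. Among those 29, Tpt1 was lowest at -1.17 in the authors' deposited table, followed by Tmsb4x at -1.10 and Naca at -1.08. At the other end stood Gm42418 at 1.11 and the nuclear long non-coding RNA Malat1 at 0.63.

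**Figure D2:**
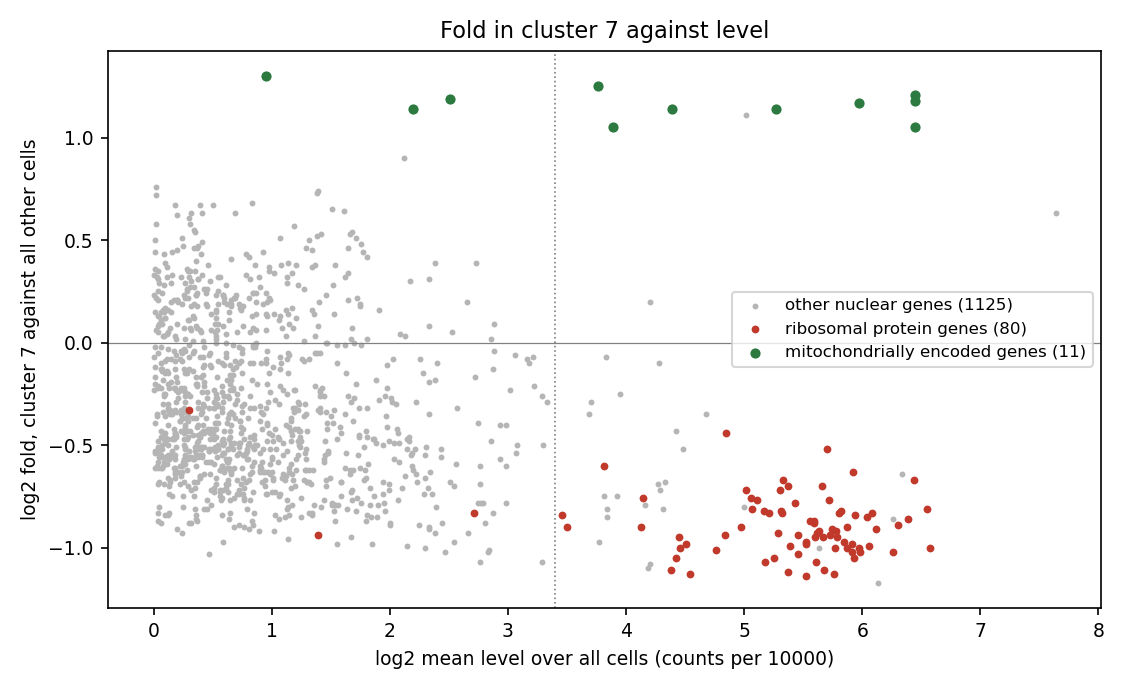
Deposited log2 fold of cluster 7 against all other cells (vertical axis) against the log2 mean level over all cells in counts per 10000 (horizontal axis), for the 1216 genes of log2 level 0 or more, with the dotted line at 3.4. Ribosomal protein genes (red) lie from -1.14 to -0.33 among other nuclear genes (grey), whose class medians run from -0.34 at the lowest levels to -0.72 at the highest, and mitochondrially encoded genes (green) lie above 1.

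Mitochondrially encoded transcripts moved the other way in the same cluster. All 13 were higher in cluster 7, with a median deposited log2 fold of 1.17 and a range of 0.85 for mt-Atp8 to 1.30 for mt-Nd4l. From level, fold and cluster size, ribosomal protein genes were estimated to supply 23.9% of counts in cluster 7, against 36.3% over all cells, and mitochondrially encoded genes 11.4%, against 4.27%. The estimated levels in cluster 7 add up to 8197 and not to 10000, so the deposited folds are not plain ratios of means. Divided by 10000 the shares in cluster 7 were 19.6% and 9.35%. A high mitochondrial share is used in single-cell work as a sign of poor cell quality. Its part in the low ribosomal protein level of cluster 7 was not tested.

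Markers of HSCs stayed present in cluster 7. Calls of markers here stand beside 26.1% of all genes called in cluster 7 in either direction and 24.3% called lower. Of 10 markers of long-term HSCs, 1 was called higher, Kit at 0.57, and 1 lower, Ly6a at -0.63, which is not above that share. The summed estimated level of the 10 was 17.9 counts per 10000 in cluster 7, against 17.4 over all cells. Myeloid markers summed to 8.31 counts per 10000 in cluster 7 and 11.3 over all cells. Prtn3, which supplied 8.42 of the 11.3, was lower at -0.54, while 4 of the 7 myeloid markers were above 0. Erythroid markers summed to 2.18 and 1.89, though Hba-a1 was lower there at -2.92 and Hbb-bs was at 0.67. Megakaryocyte markers summed to 1.33 and 1.23, with Itga2b called higher at 0.67 and Pf4 lower at -0.53. Endothelial markers summed to 0.511 in cluster 7 and 0.387 over all cells, cycling markers to 0.243 and 0.174, lymphoid markers to 0.0319 and 0.0131, and mast cell or basophil markers to 0.0302 and 0.0205. Klf1, Car1, Il7r, Ctsg, Fcer1a and Cdh5 had no count in the 267 cells of cluster 7. The part of these markers in the result was not tested.

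**Figure D3:**
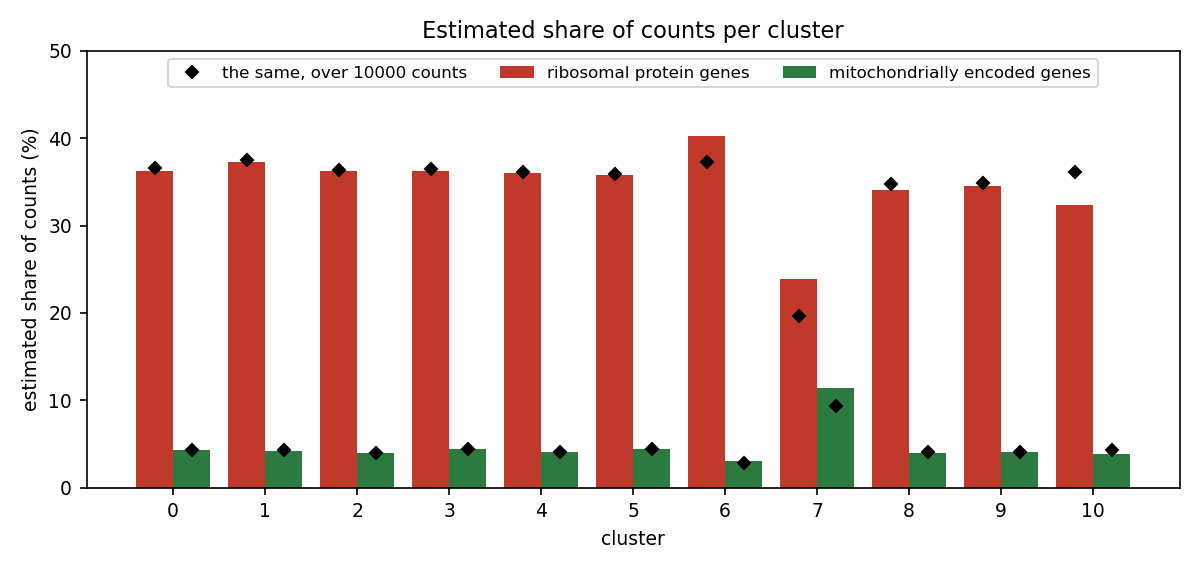
Estimated share of counts in percent (vertical axis, from 0) in clusters 0 to 10 (horizontal axis) supplied by ribosomal protein genes (red bars) and mitochondrially encoded genes (green bars), divided by the summed estimated levels, with black diamonds for the same estimates divided by 10000. Cluster 7 has the lowest ribosomal protein share, 23.9%, and the highest mitochondrial share, 11.4%.

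Genes that work with the ribosomal proteins differed among themselves in cluster 7, where 24.3% of all genes were called lower and 26.1% in either direction. Fau, which encodes a small subunit protein as a fusion, was at -1.0, and Rack1, a scaffold on the small subunit, at -0.80 in the authors' deposited table. Rps3a1 was at -0.86. Of 7 elongation factor genes, 5 were lower and none higher, with a median of -0.60, and the lowest was Eef1b2 at -1.05. Of 14 other transcripts known to carry TOP tracts, 11 were lower and none higher, with a median of -0.73, led by Tpt1 at -1.17, Naca at -1.08 and Btf3 at -1.07. Of 34 initiation factor genes, 10 were lower and none higher, a share near that of all genes, with a median of -0.26, and the lowest was Eif1 at -0.97. None of 22 genes for ribosomal protein chaperones, assembly and export was called in cluster 7, and their median was -0.16. Of 23 regulators of TOP translation and mTORC1, Larp1 was higher at 0.53, Eif4ebp1 was lower at -0.69 and Rheb lower at -0.56, with a median of 0.08. None of 10 genes of ribosome rescue and quality control was called, with a median of -0.02. Over all genes of log2 level 0 or more the median in cluster 7 was -0.42. Most members of the chaperone and regulator lists have lower levels than the ribosomal protein genes.

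The small and large subunits were set side by side in every cluster, and the ranges of their members overlapped in all 11. The median deposited log2 fold of small subunit genes minus that of large subunit genes ran from -0.077 in cluster 7 to 0.012 in cluster 1. In cluster 7 the medians were -0.952 for the small subunit and -0.874 for the large, and the SD over the 80 genes was 0.153. The next differences in size were -0.039 in cluster 9 and -0.027 in cluster 6, where the SDs over genes were 0.081 and 0.060. Whether the subunits differ as groups was not tested. All 31 small subunit genes and all 49 well-detected large subunit genes had a deposited adjusted p under 0.05 and a fold below 0 in cluster 7. These SDs are over genes and say nothing of the spread between animals.

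Outside cluster 7 the folds were small and many passed the deposited p over cells at folds far under the size needed for a call. The share of all genes that passed the adjusted p alone was not computed. Counts by that p alone, here and for every other cluster, are therefore not read as a result about the family. In cluster 1, with 3955 cells, 65 of the 80 well-detected genes were higher at an adjusted p under 0.05 and 2 were lower. None of the 82 was called at a fold of 0.5, where 2.53% of all genes were called, nor at 0.25, where 6.11% were called. The median was 0.06 and the highest deposited folds were 0.10 for Rpl21, 0.09 for Rps9 and 0.09 for Rps24. Among the lowest were Rpl7l1 at -0.05 and Rps27l at -0.03. The 29 other nuclear genes of level 3.4 or more also had a median of 0.06 in cluster 1, as did the 26 without ribosomal genes. The estimated share of counts was 37.3% in cluster 1, against 36.3% over all cells.

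In the authors' pathway table, translation stood at the top of cluster 1. Of 2922 pathways, Reactome eukaryotic translation elongation ranked 1 by the deposited score, at 17.4 with a log2 fold of 0.05. The WikiPathways set of cytoplasmic ribosomal proteins ranked 2 at 17.2, with a fold of 0.04, and the KEGG ribosome ranked 7 at 16.7, with a fold of 0.05. These ranks go with folds of 0.05 or less. In cluster 7 the KEGG ribosome had a deposited score of -12.8 and a far larger fold of -0.87, yet ranked only 58 from the lowest. The WikiPathways translation factors went the other way in cluster 1, with a score of -10 and a fold of -0.03. By their names these sets cover the genes described here, so they are not separate evidence, and their members were not analysed here.

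Clusters 0 and 2 were the ones in which single members spread most among the large clusters, with SDs over the 80 genes of 0.065 and 0.056. The 1136 other genes of log2 level 0 or more also spread most there among the large clusters, with SDs of 0.204 and 0.181. Clusters 0 and 2 hold 4904 and 3910 cells. Each stands among the cells the other is compared with, so their folds are given side by side and not related. In cluster 0, 45 of the 80 genes were higher and 23 lower at an adjusted p under 0.05, and in cluster 2, 32 were higher and 30 lower. At a fold of 0.5, 9.02% of all genes were called in cluster 0 and 6.5% in cluster 2, against 1 and none of the 82 ribosomal protein genes. The 1 gene was Rpl39l, lower in cluster 0 at -0.74 with a deposited adjusted p of 3.36e-02 and a mean level of 0.011 counts per 10000. At 0.25 the shares of all genes were 17.6% and 13.2%, and no further ribosomal protein gene was called.

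Highest in cluster 0 were Rps27l at 0.18, Rpl39 at 0.17 and Rps26 at 0.16, whose deposited folds in cluster 2 were -0.08, -0.11 and -0.10. Rps26 lies at the mRNA exit channel and Rpl39 lines the peptide exit tunnel. Lowest in cluster 0 were Rplp1 at -0.14, Rpl5 at -0.09 and Rpl7 at -0.09, with 0.14, 0.09 and 0.10 in cluster 2. Rplp1 and Rpl7 were also the highest of the 80 in cluster 2, with Rpl23a at 0.10, and the lowest there were Rpl22l1 at -0.14, Rpsa at -0.12 and Rpl39 at -0.11 in the authors' deposited table. Rpl5 and Rpl11 form the 5S particle, a known sensor of failed ribosome assembly. Rpl11 was at 0.02 in both clusters, where its partner Rpl5 was at -0.09 and 0.09.

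**Figure D4:**
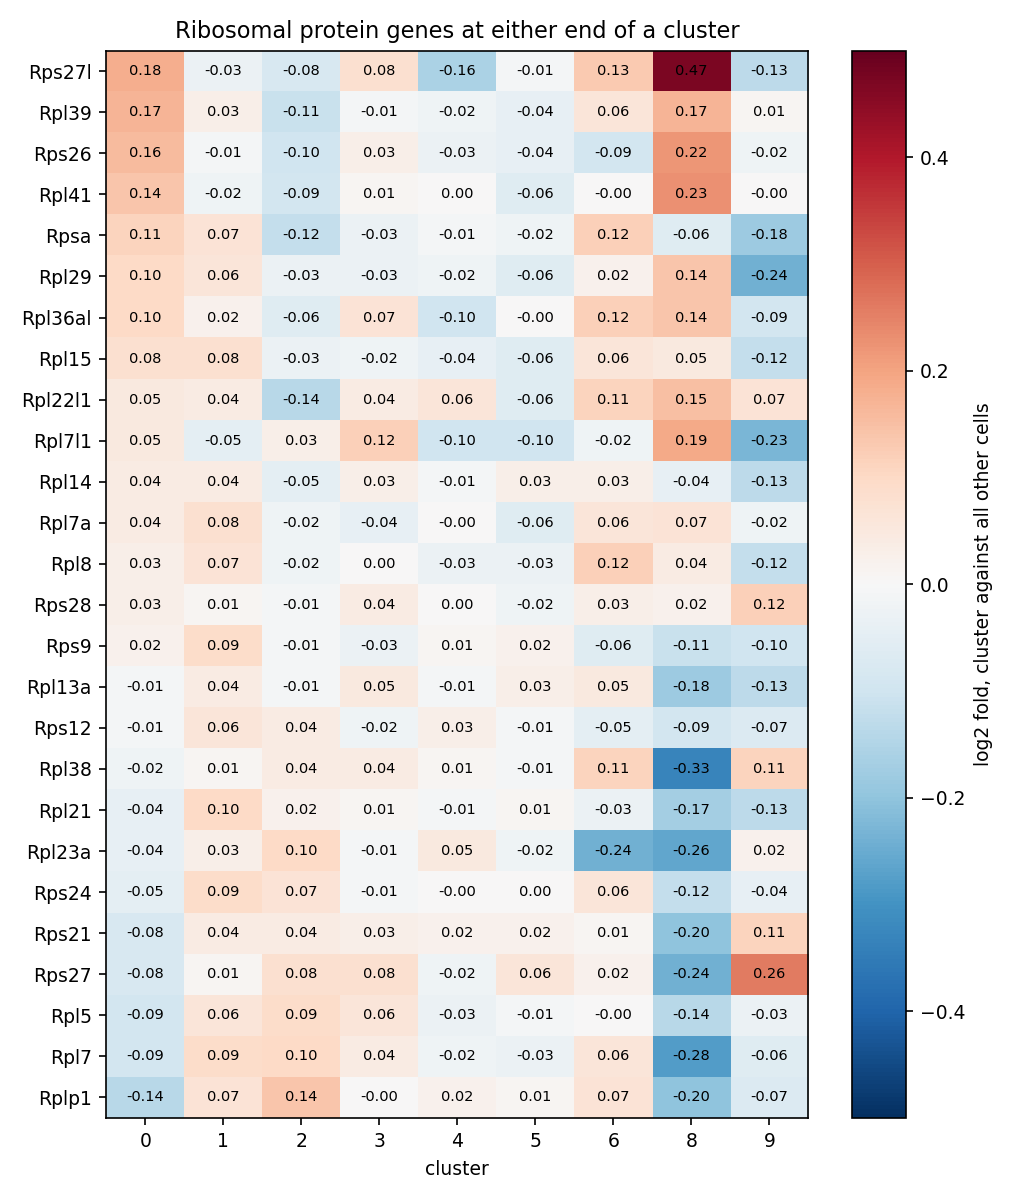
Deposited log2 fold of each cluster against all other cells (colour and printed value) for 26 ribosomal protein genes that were among the 3 highest or 3 lowest of the 80 in any of clusters 0 to 6, 8 and 9, ordered from the highest to the lowest fold in cluster 0. Clusters 7 and 10 are left out for scale. Rps27l in cluster 8, at 0.47, is the highest value and Rpl38 in cluster 8, at -0.33, the lowest.

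Clusters 3, 4 and 5 were the flattest. Their medians were 0.02, -0.01 and -0.02 and the SDs over the 80 genes 0.029, 0.029 and 0.026. Over the other genes of log2 level 0 or more the SDs in clusters 3, 4 and 5 were 0.111, 0.125 and 0.093, also below those of clusters 0 and 2. No ribosomal protein gene was called in any of them at either size. The shares of all genes called at 0.5 were 2.61% in cluster 3, 1.73% in cluster 4 and 5.01% in cluster 5, and at 0.25 they were 5.57%, 5.45% and 5.87%. Of the 80, the widest value in the authors' deposited table was that of Rps27l in cluster 4, at -0.16, followed by Rpl7l1 in cluster 3, at 0.12. In cluster 5 the highest were Rps27 at 0.06, Rpl13a at 0.03 and Rpl14 at 0.03, and the lowest Rpl7l1 at -0.10.

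Cluster 6 holds 310 cells, and the SD over the 80 ribosomal protein genes was 0.060 there. The median fold was 0.04 for the ribosomal protein genes and -0.11 for all genes of log2 level 0 or more. For the 26 other nuclear genes of level 3.4 or more, ribosomal genes left out, it was -0.01. No ribosomal protein gene was called, where 26.2% of all genes were called at 0.5 and 33.3% at 0.25. The highest were Rps27l at 0.13, Rpsa at 0.12 and Rpl8 at 0.12, and the lowest was Rpl23a at -0.24. The estimated share of counts was 40.3% in cluster 6 when divided by the summed levels of 9247, and 37.3% when divided by 10000, against 36.3% over all cells. Mitochondrially encoded genes were lower here, 11 of 13 with a median of -0.74, and the summed erythroid markers were at 9.69 counts per 10000 in cluster 6, against 1.89 over all cells. The part of either in these values was not tested.

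Clusters 8, 9 and 10 are small, with 173, 112 and 10 cells. No ribosomal protein gene was called at 0.5 in cluster 8 or 9, where 21.9% and 21.1% of all genes were called. In cluster 8 the family spread more widely than elsewhere outside cluster 7, with an SD over genes of 0.142. The SD over the other genes of log2 level 0 or more was 0.292 in cluster 8. At a fold of 0.25, where 26.1% of all genes were called, the calls included Rps27l, higher at 0.47, and 3 lower genes, Rpl38 at -0.33, Rpl7 at -0.28 and Rpl23a at -0.26. Rpl41, the shortest ribosomal protein, was at 0.23. The ribosomal protein median was -0.06 in cluster 8, where all genes of log2 level 0 or more had a median of 0.14 and the 29 other nuclear genes of level 3.4 or more one of -0.04, as did the 26 without ribosomal genes. Malat1 was at -1.15 in cluster 8, and 5 of 10 long-term HSC markers were lower there. Of 4 cycling markers only Mki67 was called, higher at 2.98, with a mean level over all cells of 0.0207 counts per 10000. Birc5 was at 0.69, Ccnb1 at 0.22 and Top2a at -0.11 in cluster 8. The part of Malat1 and of these markers in the ribosomal protein values was not tested.

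In cluster 9, 35 of the 80 genes were lower and 5 higher at an adjusted p under 0.05, with a median of -0.07. The only gene called at 0.25, where 22.0% of all genes were called, was Rps27, higher at 0.26. Rps28 at 0.12 and Rps21 at 0.11 followed, and the lowest were Rpl29 at -0.24, Rpl7l1 at -0.23 and Rpsa at -0.18 in the authors' deposited table. In cluster 10, 29.4% of all genes were called at 0.5 and 29.7% at 0.25. Rpl39l was called because none of the 10 cells held it, and no fold is given for it. Among the 80, the folds in cluster 10 ran from -0.20 for Rpl7l1 to 0.30 for Rpl35, and 2 passed an adjusted p of 0.05.

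Paralogues and their partners differed widely in level. Per kilobase of the longest principal transcript (GENCODE M21, GRCm38), Rps27l had a mean level of 5.26 counts per 10000 and Rps27 one of 133.0. Rpl36al was at 5.14 and Rpl36a at 56.2, and Rpl7l1 at 0.471 and Rpl7 at 32.7. Rpl39l was at 0.0137 and Rpl39 at 79.9, and Rpl3l at 8.64e-05 and Rpl3 at 35.7. Rpl22l1 was the one paralogue above its partner, at 20.6 against 11.1 for Rpl22. Per kilobase of the median coding transcript it remained above, at 21.1 against 11.1, while Rpl7l1 came to 0.938 and Rpl36al to 8.67. Droplet kits that read one end of a transcript do not give counts in proportion to length. On counts per 10000 not divided by length, Rpl22l1 was at 11.3 and Rpl22 at 22.7, so the order of this pair depends on the scale.

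Rps27l, a gene known as a p53 target, and Rps27 had folds of opposite sign in several clusters. In cluster 8 the deposited folds were 0.47 for Rps27l and -0.24 for Rps27, with adjusted p of 1.14e-08 and 6.14e-17. In cluster 0 they were 0.18 and -0.08, and in cluster 2, -0.08 and 0.08, each with an adjusted p under 0.05. In cluster 9 Rps27l was at -0.13 with an adjusted p of 4.05e-01, and Rps27 at 0.26 with 7.71e-11. In cluster 7 both were lower, at -0.94 and -0.97. The difference within the pair was not tested. All 12 measured genes of the p53 list were above 0 in cluster 8, with a median of 0.39. None of the 12 was called there, where 21.9% of all genes were called at a fold of 0.5. The median of all genes of log2 level 0 or more was 0.14 in cluster 8. Of the 12, 11 have a log2 level below 0, and genes below that level with a count in cluster 8 had a median of 0.13. In cluster 10, with 10 cells, the p53 list had a median of 0.35, and 2 of the 12 had no count. In cluster 9, where Rps27l was at -0.13, the p53 target Cdkn1a was the 1 gene of the list called, higher at 3.34. There 21.1% of all genes were called. The part of p53 in the Rps27l values was not tested.

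Rpl22 is known in mice to hold down the level of Rpl22l1. Their deposited folds, Rpl22l1 first, were -0.90 and -0.98 in cluster 7, 0.05 and 0.10 in cluster 0, -0.14 and -0.04 in cluster 2 and 0.15 and 0.11 in cluster 8. In cluster 4 they had opposite signs, at 0.06 and -0.04, with adjusted p of 9.90e-06 and 1.63e-06. Rpl36al and Rpl36a were at -0.83 and -1.01 in cluster 7 and at 0.14 and -0.12 in cluster 8. Rpl7l1, whose product works in ribosome assembly, and Rpl7 were at -0.33 and -1.05 in cluster 7 and at 0.19 and -0.28 in cluster 8, and the Rpl7l1 value in cluster 8 had an adjusted p of 1.23e-01. Rpl39l and Rpl3l were too rare to compare with Rpl39 and Rpl3, and Rpl10l and Rps4l were not analysed here. Of names that share a number without being paralogues, Rpl13 and Rpl13a were at -0.81 and -0.82 in cluster 7, and Rpl7a was at -0.76.

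**Figure D5:**
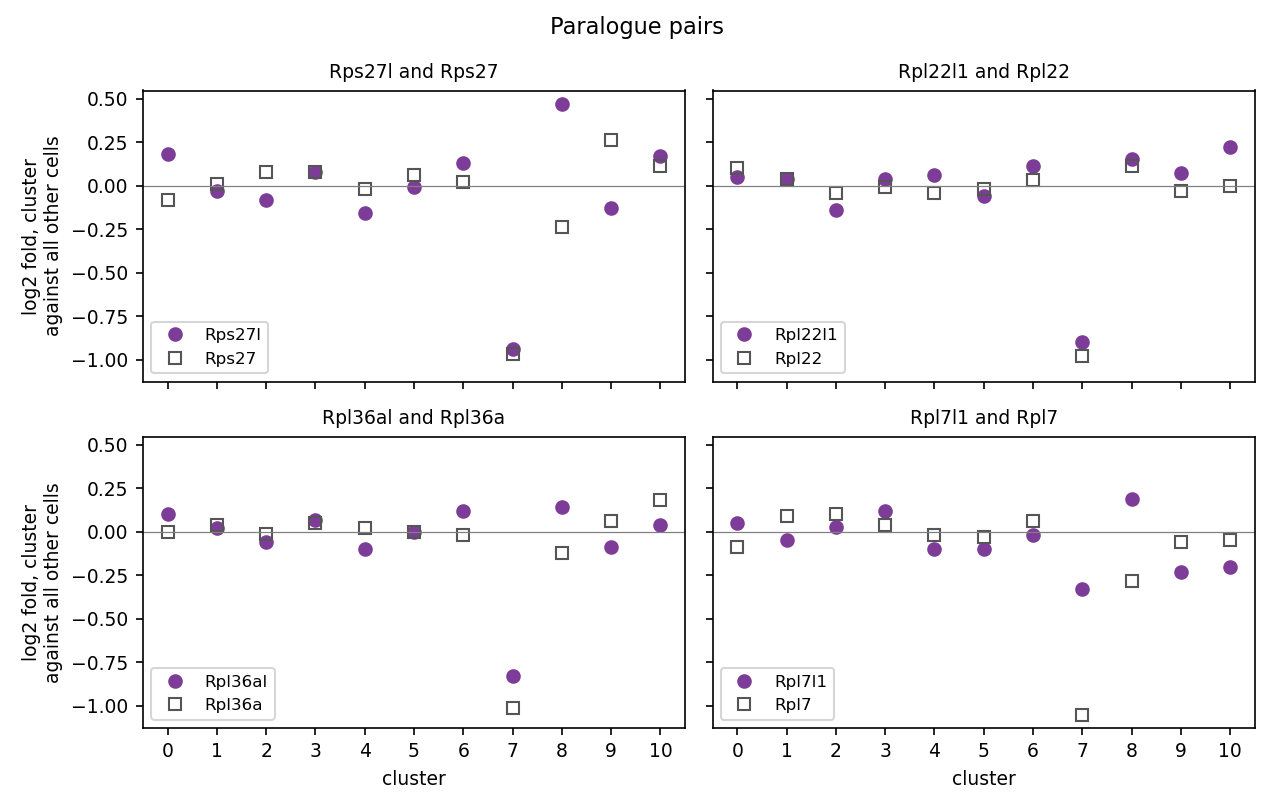
Deposited log2 fold of each cluster against all other cells (vertical axis) in clusters 0 to 10 (horizontal axis) for 4 paralogues (filled circles) and their partners (open squares). Rps27l and Rps27 lie furthest apart in cluster 8, at 0.47 and -0.24, and Rpl7l1 and Rpl7 in cluster 7, at -0.33 and -1.05.

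Many ribosomal protein genes have near-identical processed copies, and reads that match several copies can be dropped or split in counting. Such rows named in the tables were Rps27rt at 0.745 counts per 10000, Rpl9-ps6 at 0.592, Rpl10-ps3 at 0.474 and Rpl36a-ps1 at 0.389. In cluster 8 the deposited fold of Rps27rt was -0.30, beside -0.24 for Rps27, and in cluster 9 it was 0.23 beside 0.26. Levels of Rps27, Rpl9, Rpl10 and Rpl36a are uncertain, by an amount these rows do not measure, and the same may hold for others whose copies were not analysed here.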

How the data were processed

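The authors deposited 22 tables over the pooled 6 libraries, 11 by gene and 11 by pathway, with 1 of each kind per cluster. Scanpy and the mm10 genome are named in the submitters' processing notes, with no settings for counting, clustering or testing, and how doublets were treated is not given in the sources at hand. The deposited gene tables hold a log2 mean level, the same in every table, a log2 fold of the cluster against all other cells, and a p-value over cells with its adjusted value. The deposited pathway tables hold a score, a log fold taken as log2, and p-values. The depth of a library is not in these tables, and the precision of a value for a cluster is limited by its cell number, 10 to 4904.

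Folds under -10 were read as no count in the cluster. Cell numbers were inferred from the deposited p-values of genes seen in 1 cell. A cluster's level was estimated from mean level, fold and cell number, and shares were summed from it. Cell numbers and median folds were tested on simulated data, and the estimated levels and shares were not. Genes named were those called, the 3 highest and 3 lowest members of each cluster, the paralogue pairs, 10 members picked by name, and up to 4 called genes of a list per cluster, and the text prints part of these. Some genes that these rules name are not reported here. Tmsb4x, Malat1, Gm42418, Mki67, other single marker genes and the copies were named after their values were seen. The members, gene lists and rules were chosen with earlier results of these data known. The level limit of 3.4, the start window, the run of 8, the motifs, the 6 pathways read the use of the principal transcript and the 26 comparison genes were chosen after values or sequences had been seen. With 1 library per group and no value per library, no test over samples could be made. Alternatives varied the fold and p limits, the members, the level filter, the mean against the median, the centring and the denominator of shares. Python 3.11.15, pandas 2.3.3, NumPy 2.4.6, SciPy 1.17.1 and matplotlib 3.10.9 were used.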

Additional observations from a re-analysis of the deposited data

How the results depend on the processing

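Of 165 alternative values, 146 stayed within the limits given below, and 7 of these, all within 1 SD of values near 0, had the opposite sign. At an adjusted p under 0.01, with names ending in l or l1 left out, or with genes of log2 mean level of at least 0 only, the number called was 0 in cluster 0, and under the last 2 it was 0 in cluster 10, because the 1 gene called was Rpl39l. At a fold of 0.25 the number called was 5 in cluster 8 and 1 in cluster 9. Minus the median of genes of log2 level 0 or more, the median fold in cluster 7 was -0.492, that in cluster 4 was 0.021, that in cluster 6 was 0.154 and that in cluster 10 was -0.218. Minus the median of other nuclear genes of level 3.4 or more, an alternative chosen after seeing the data, cluster 7 had -0.187 and cluster 6 had 0.039. Cluster 10 had -0.01, cluster 9 had -0.11 and cluster 1 had -0.006, where the sign turned. With the 3 ribosomal genes among those nuclear genes left out, also chosen after seeing the data, the values were -0.226, 0.056, -0.041, -0.118 and -0.004 in the same order. As a difference of means, small minus large subunit in cluster 3 was -0.029, which includes Rpl3l at 1.36. Divided by 10000, also chosen after seeing the data, the share in cluster 7 was 19.6%, with 37.3% in cluster 6 and 36.1% for cluster 10. A shift of more than 2 percentage points in a share, or of 1 SD over the members in a median, was taken as a move. Numbers called were judged by their ratio instead, and those taken as moved were the ones given above for clusters 0, 8, 9 and 10. No paired analysis was possible because the tables hold no value per library. No library could be left out for the same reason.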
